A study of Mus musculus with 4 samples.

Results

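The circles described here begin at a 5' splice site, end inside the same intron, and lie in the later introns of moderate length of genes read in C2C12 cells. They were chosen by 4 properties of their entries and by no read count: the entry is of the intronic type, the intron is number 2 or later of its transcript, the intron is longer than 500 and at most 5000 nt, and the circle ends more than 50 nt before the intron's 3' end. Mitochondrial entries were left out. The rule gave 53650 circles in 5904 introns, out of 69136 circles of all kinds and 65005 nuclear intronic circles. They make up 82.5% of the intronic circles. C2C12 is an established mouse myoblast line, and the cells had been switched to differentiation medium with horse serum, in which they fuse into myotubes. One group holds 2 libraries of untreated total RNA (labelled control) and the other 2 libraries of RPAD RNA, in which linear RNA was digested with RNase R, the remainder was given poly(A) tails and poly(A)+ RNA was removed. All 4 libraries come from differentiated cells, and both kinds of RNA were depleted of ribosomal RNA. Whether a group's libraries are separate cultures is not stated in the labels, whose protocol names HeLa RNA in the RNase R reaction although every library is labelled C2C12.

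An intron is removed from a pre-mRNA as a lariat, a loop in which its 5' end is joined to a branch point, an adenosine that usually lies close before the 3' splice site. A debranching enzyme normally opens the loop and the intron is degraded, but some lariats escape and persist as circular intronic RNA. A read that crosses such a junction runs from the inside of the intron back to its 5' splice site. RNase R degrades RNA from a free 3' end, so a preparation with RNase R favours closed molecules over linear ones. The circles described here end outside the usual place of the branch point by the way they were chosen, and how their junctions arose was not tested.

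No mouse genome of the build used by the files was at hand, so bases at the circle ends and splice sites are not shown. Of the transcript names in the files, 0 matched the symbol tables at hand. The introns are therefore given by position in mm9, counted from 1, and marker genes of muscle cells are not analysed here. The member circles carry 4863 transcript names, of which 2915 are Ensembl-style and the others assembled models. The libraries held 17570 and 16739 reads on member circles in total RNA 1 and 2, and 79259 and 84449 in RPAD 1 and 2. Reads are back-splice junction reads, and they measure each circle relative to the other circles of its library. In RNA from many cells, fewer cells with a circle and fewer copies per cell cannot be told apart.

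Member circles were spread over more introns in total RNA and packed into fewer introns in RPAD RNA. Total RNA 1 and 2 listed member circles in 3123 and 2508 introns, and RPAD 1 and 2 in 1058 and 1315. The groups did not overlap, and the means were 2815.5 ± 435 and 1186.5 ± 182 introns (SD, n = 2 each; exact two-sided permutation p = 0.33, the smallest that 2 against 2 libraries can give). Each intron of an RPAD library held more circles: 11.9 and 16.5 per intron, against 4.31 and 4.76 in total RNA (means 14.2 ± 3.24 and 4.54 ± 0.318; SD, n = 2 each; exact permutation p = 0.33). With ends within 10 nt of each other counted as 1 circle, the values were 3.40 and 3.74 against 2.42 and 2.58, and the difference between the means was 1.08 where it had been 9.69. Brought to an equal depth of 16739 member reads by rarefaction, which gives the number of items expected in a smaller draw of reads, the RPAD libraries kept 8.41 and 9.30 circles per intron and total RNA 4.21 and 4.76. At that depth the introns numbered 897 and 1054 in RPAD and 3078 and 2508 in total RNA. Neither direction was particular to member circles. At full depth, the RPAD mean of introns listed was 0.421 of the total RNA mean for members. The ratio was 0.422 for first introns, 0.491 for shorter introns, 0.204 for longer later introns and 0.219 for circles ending near the intron's end. For circles per intron the RPAD mean was 3.14 times the total RNA mean for members. In the same order it was 2.59, 3.08, 2.99 and 1.73 times for the other classes.

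The number of member circles listed did not give a stable direction. Total RNA 1 and 2 listed 13464 and 11941 circles and RPAD 1 and 2 listed 12629 and 21713, so the RPAD libraries lay on both sides of total RNA 1. The group means, 12702.5 ± 1077 and 17171 ± 6423 (SD over 2 libraries), gave an exact permutation p of 0.667. Without RPAD 2 the difference of 4468.5 circles became -73.5, and at equal depth RPAD listed fewer, with 7543 and 9804 circles against 12956 and 11941 in total RNA. When ends within 10 nt of each other in an intron were counted as 1 circle, total RNA listed 7553 and 6459 and RPAD 3602 and 4918. With at least 5 reads required, the lists held 102 and 143 circles in total RNA, against 5503 and 5387 in RPAD.

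Most member circles of total RNA were seen once, and most of those in RPAD RNA more often. A single read supported 79.0% and 73.6% of member circles in total RNA 1 and 2, and 17.4% and 33.9% in RPAD 1 and 2. Reads per listed circle were 1.30 and 1.40 in total RNA, against 6.28 and 3.89 in RPAD (means 1.35 ± 0.0685 and 5.08 ± 1.69; SD, n = 2 each; exact permutation p = 0.33). Depth moves with this difference: at 16739 member reads per library the values were 1.29 and 1.40 against 2.22 and 1.71. The groups still did not overlap, and the gap was smaller.

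Member circles held most reads of the intronic type in every library. Their share of intronic reads was 79.3% (95% exact Clopper-Pearson interval 78.7 to 79.8) in total RNA 1 and 81.3% (80.8 to 81.8) in total RNA 2. It was 83.9% (83.6 to 84.1) in RPAD 1 and 85.0% (84.8 to 85.2) in RPAD 2. The group means, 80.3% ± 1.44 and 84.4% ± 0.786 (SD over 2 libraries), gave an exact permutation p of 0.33, with both RPAD libraries above both total RNA libraries. As a share of all back-splice reads, exonic ones included, the values were 45.2% and 46.5% in total RNA, against 52.7% and 44.2% in RPAD, and here the groups overlapped. These intervals take each read as an independent draw and leave out the spread between libraries. PCR copies were not marked, so the intervals may be too narrow even for counting error.

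The circles ended close to the 5' splice site, in the first part of the intron, and far from the 3' end. The length of such a circle is the distance of its end from the 5' splice site, and every entry began exactly there. The median length was 165 and 171 nt in total RNA 1 and 2 and 148 and 149 nt in RPAD 1 and 2 (means 168 ± 4.24 and 148.5 ± 0.707, SD over 2 libraries; p = 0.33 by exact permutation). The middle of the distribution ran from 127 to 239 nt in total RNA 1 and from 120 to 209 nt in RPAD 1 (quartiles). Weighted by reads, the medians were 163, 169, 151 and 145 nt. The median end lay 1068, 1049, 1169 and 983 nt before the 3' end of the intron, and at 13.7%, 14.1%, 11.7% and 14.2% of the intron's length. Circles over 500 nt made up 3.58% and 3.82% of those in total RNA, against 1.99% and 1.66% in RPAD.

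The length distribution had a sharp lower edge at 100 nt. Circles shorter than 100 nt made up 0.134% and 0.159% of the total RNA lists and 0.285% and 0.304% of the RPAD lists. In total RNA 1, 8 circles were 99 nt long, 32 were 100 nt and 112 were 101 nt, and in total RNA 2 the counts were 8, 27 and 118. The fullest 10 nt bin was 110 to 119 nt in all 4 libraries, with 9.56% and 8.79% of circles in total RNA, against 12.3% and 12.1% in RPAD. Circles of 100 to 150 nt made up 41.7% and 39.5% in total RNA, against 51.3% and 50.4% in RPAD, so the RPAD lists leaned towards the short end. The read length was not given in the sources used here, and its part in the edge was not tested.

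**Figure D1:**
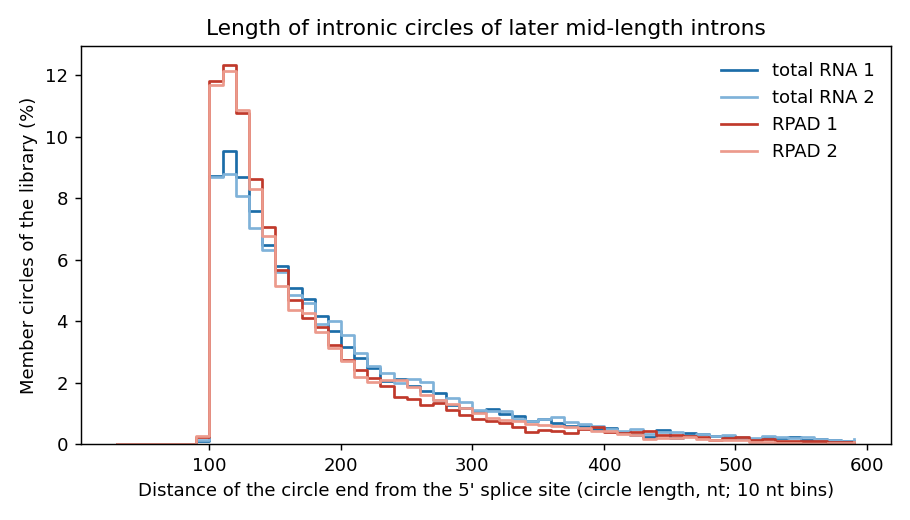
Percent of the member circles of each library (y axis) by circle length in nt, which is the distance of the end from the 5' splice site (x axis, 10 nt bins, shown up to 600 nt). All 4 lines rise at 100 nt and peak at 110 to 119 nt, and the RPAD lines are higher there, at 12.3% and 12.1% against 9.56% and 8.79%.

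Median circle length differed little between 3 broad bins of intron length, and more between the ends of the range. In introns over 500 and up to 1000 nt the median circle was 158, 163, 147 and 146 nt long, in the order total RNA 1 and 2 and RPAD 1 and 2. In introns over 2000 and up to 5000 nt it was 171, 175, 151 and 156 nt. Over the 4 libraries together, the median was 142 nt in introns over 500 and up to 600 nt and 210 nt in those over 4500 and up to 5000 nt. The relative position of the end was lower in the longer bin, going from 21.4%, 22.6%, 19.4% and 20.6% of the intron in the shorter bin to 6.19%, 6.23%, 5.73% and 6.08% in the longer one. Introns over 1000 and up to 2000 nt held the largest part of the member reads of each library, 42.6%, 42.0%, 41.6% and 42.9%. These values describe the circles of each library and were not tested.

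**Figure D2:**
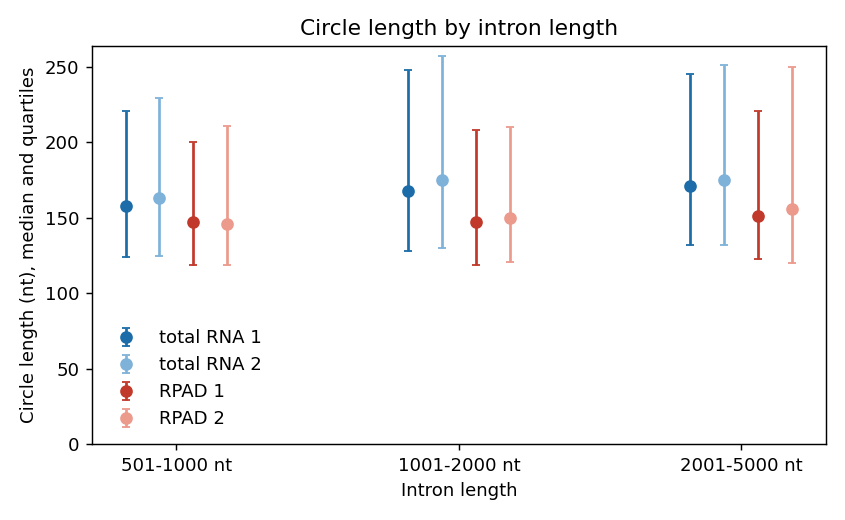
Circle length in nt (y axis; points are medians over the member circles of 1 library, bars run between the quartiles) in 3 bins of intron length (x axis). The medians stay between 146 and 175 nt in all bins and libraries, from the shortest bin of introns to the longest.

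In introns with many member circles, the ends lay in a narrow stretch of positions. A single member circle was listed in 34.4% and 32.8% of introns in total RNA, against 19.2% and 14% in RPAD, and these introns are not part of the values that follow. Introns with at least 10 member circles numbered 321 and 317 in total RNA, against 402 and 625 in RPAD. In those introns the distance between the first and the last end had a median of 77 and 78 nt in total RNA and 67 and 68 nt in RPAD. All ends fell within 90 nt in 76.6% and 78.2% of these introns in total RNA, and in 91.5% and 90.6% in RPAD. The most used end took a median of 13.3%, 13.3%, 14.4% and 12.1% of the intron's member reads, in introns that had been chosen for holding many ends. The 90 nt width was chosen after the spans were seen.

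The stretches were filled more densely in RPAD RNA. Between the first and last end of an intron with at least 10 circles, a median of 20.0% and 19.0% of positions carried a circle in total RNA. In RPAD it was 38.8% and 45.5%. Over all introns with more than 1 member circle, neighbouring ends were 1 nt apart in 19.2% and 20.3% of cases in total RNA. In RPAD they were so in 46.9% and 57.1%, and the median gaps were 5, 4, 2 and 1 nt. Depth per intron moves with these measures. Over all member introns, those with 1 circle included, it was 5.63 and 6.67 member reads in total RNA, against 74.9 and 64.2 in RPAD. The introns with at least 10 circles held 48.8% and 53.1% of member reads in total RNA, against 89.8% and 94.5% in RPAD. Their reads per intron are not given here, and the part of depth in the density was not tested. In the introns with at least 10 circles the first end lay at a median of 117, 130, 104 and 103 nt. It lay between 100 and 110 nt in 39.9%, 30.9%, 52.0% and 53.4% of them. Many stretches thus began at the lower edge of the lengths listed.

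The place of the stretch recurred for introns read well in several libraries. For the introns with at least 20 member reads in both of 2 libraries, the read-weighted median end was compared between them. In the 55 such introns of the total RNA pair the medians differed by 7 nt in the median intron, and by at most 10 nt in 67.3%. In the 97 introns of the RPAD pair they differed by 8 nt, and by at most 10 nt in 53.6%. Across the introns of total RNA 1 the same medians had an interquartile range of 70 nt, so they differed more between introns than within one. Between total RNA and RPAD libraries the median change was -4, 1, 0 and 0 nt in 38, 39, 42 and 49 introns (RPAD 1 and 2 against total RNA 1, then against total RNA 2). Over the whole lists, the group mean of the median lengths fell by 19.5 nt.

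Some single end positions were listed in both libraries of a pair. In the same 55 introns of the total RNA pair, 699 circles were listed in both, 41.5% of the 1683 in total RNA 1 and 42.6% of the 1641 in total RNA 2. In the 97 introns of the RPAD pair, 1333 circles were listed in both, 54.9% of the 2426 in RPAD 1 and 35.4% of the 3766 in RPAD 2. Those shared circles held 60.7% and 39.5% of the reads of these introns. Ends that fill a narrow stretch densely can coincide without a preferred position. The overlap to be expected from that was not computed, so these shares do not show that single ends recur. Over all introns, 90.5% of member circles were listed in 1 library, 7.82% in 2, 1.43% in 3 and 0.227% in all 4.

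An intron of 779 nt, chr1:71675111-71675889 (minus strand), shows the pattern with the steadiest single end. It is intron 15 of its transcript model (ENSMUST00000097700 in some entries), and it carried 217 and 153 member reads in total RNA, against 677 and 365 in RPAD. All 4 libraries were well above 0, and its 40 circles were 100 to 144 nt long. The circle of 122 nt, chr1:71675768-71675889, was the most read end in every library, with 29, 20, 98 and 37 reads. It took 13.4%, 13.1%, 14.5% and 10.1% of the intron's reads. The read-weighted median end was 122 nt in the first 3 libraries and 117 nt in RPAD 2.

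**Figure D3:**
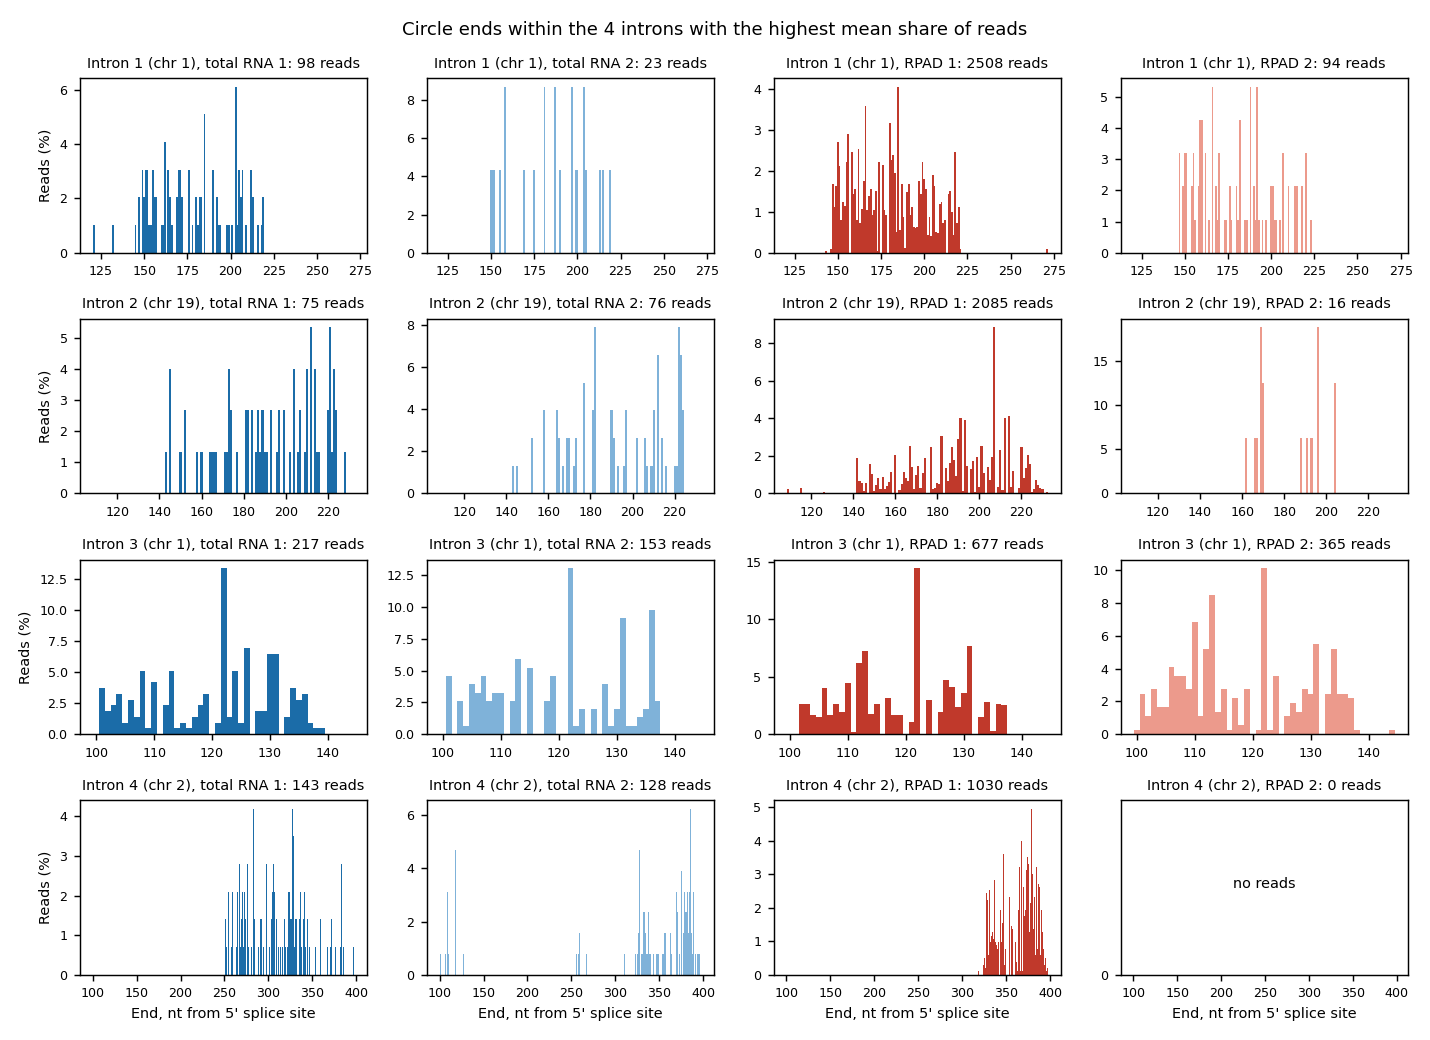
Percent of an intron's member reads in a library (y axis) by the distance of the circle end from the 5' splice site in nt (x axis), for the 4 introns with the highest mean share of reads (rows) in the 4 libraries (columns); each panel has its own y scale and its total reads in the title. The ends fill a stretch that lies at a like distance in the libraries with reads, the 779 nt intron has its tallest bar at 122 nt in all 4, and the fourth intron has 0 reads in RPAD 2.

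The chr1 intron stood out among circles listed in all 4 libraries, a list of 122 circles in 25 introns. It held 25 of them, more than any other intron. The next was chr4:123060667-123061887 with 15, followed by chr2:76637666-76638539 with 11. Of the 122 circles, 7 had at least 5 reads in every library. The 5 with the highest lowest count were all in the chr1 intron, with lengths of 122, 131, 113, 136 and 119 nt. The circle of 131 nt had 14, 14, 52 and 20 reads, that of 113 nt had 11, 9, 49 and 31, and that of 136 nt had 7, 15, 18 and 9. The circle of 119 nt had 7, 7, 11 and 10 reads.

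Which introns gave circles differed more between the RPAD libraries than between the total RNA libraries. Of all introns with a member circle, 74.1% were listed in 1 library, 18.2% in 2, 5.83% in 3 and 1.91% (113 introns) in all 4. The total RNA libraries shared 936 introns, 30.0% and 37.3% of their lists, and the RPAD libraries shared 245, 23.2% and 18.6% of theirs. Among introns with at least 20 reads in RPAD 1, 394 of 541 (72.8%) had 0 reads in RPAD 2. Of those in RPAD 2, 469 of 607 (77.3%) had 0 in RPAD 1. In total RNA the numbers were 53 of 149 (35.6%) and 42 of 168 (25%). The difference between these shares was not tested. A cut at 20 reads is a smaller part of the deeper RPAD libraries, so it admits introns of a lower share there. By group, 3776 introns were listed only in total RNA, 1209 only in RPAD and 919 in both. The same counts over all introns with intronic circles are not given here, so none of these is particular to member introns.

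**Figure D4:**
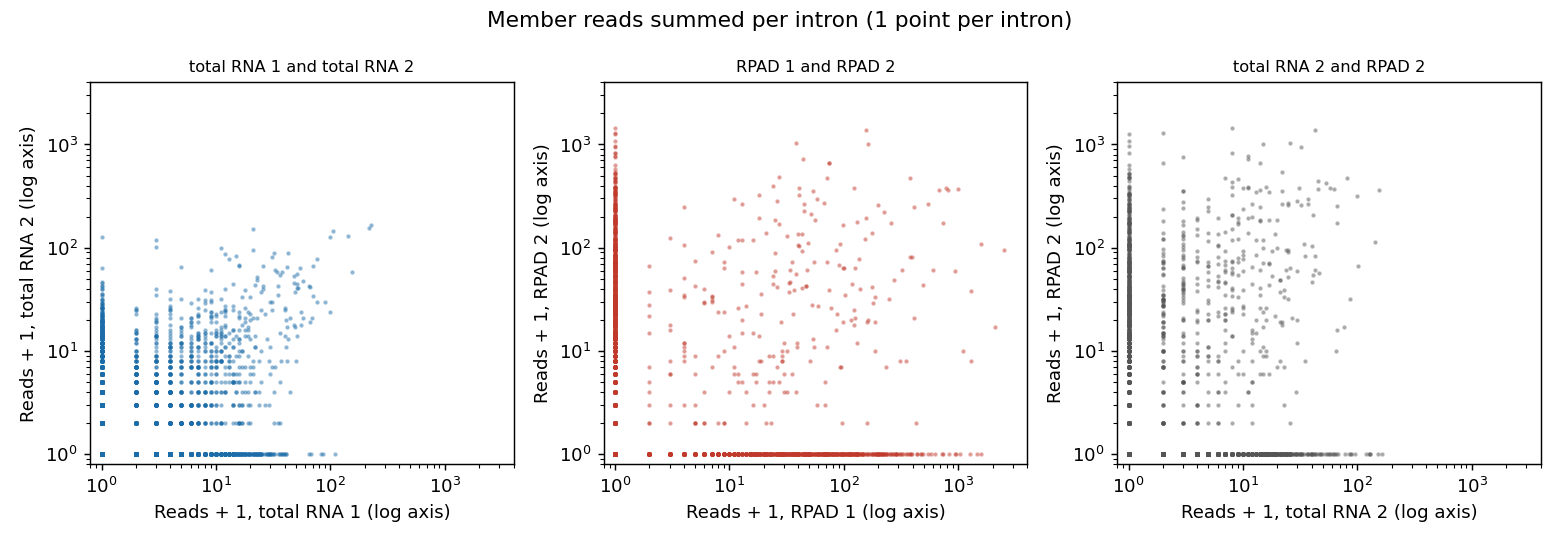
Member reads summed per intron, plus 1, on log axes, with 1 point per intron, for the 2 total RNA libraries (left), the 2 RPAD libraries (middle) and total RNA 2 against RPAD 2 (right). Points on the axes at 1 have 0 reads in 1 library; in the middle panel these include 394 of the 541 introns with at least 20 reads in RPAD 1.

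The introns listed in all 4 libraries were also among those with more reads. They had a lowest, median and highest count of 1, 6 and 217 reads for total RNA 1, and 1, 7 and 153 for total RNA 2. In RPAD 1 the counts were 1, 42 and 2508, and in RPAD 2 they were 1, 48 and 1373. These 113 introns held 10.6% and 9.84% of member reads in total RNA, against 24.8% and 17.7% in RPAD. They also made up a larger part of the shorter RPAD lists, 10.7% and 8.59% of the introns listed, against 3.62% and 4.51% in total RNA. The reads were concentrated in few introns after RPAD: 50% of member reads came from 335 and 269 introns in total RNA, and from 61 and 92 in RPAD. No intron took more than 1.28%, 0.980%, 3.16% and 1.71% of the member reads of its library.

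The introns with the highest mean share of reads owed their rank to 1 RPAD library in most cases. The first by mean share, chr1:60555379-60556323 (intron 9, 945 nt), counted 2508 reads in RPAD 1 and 94 in RPAD 2, beside 98 and 23 in total RNA. The second, chr19:47343427-47344327 (intron 5, 901 nt), counted 2085 in RPAD 1 and 16 in RPAD 2, beside 75 and 76 in total RNA. Both were read in every library, and RPAD 1 exceeded RPAD 2 by far. The chr1 intron of 779 nt described above came next.

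Among the next 5 introns, 2 had many reads in RPAD 1 and none in RPAD 2. The intron chr2:27387235-27388512 (intron 10, 1278 nt) counted 1030 in RPAD 1 and 0 in RPAD 2, beside 143 and 128 in total RNA. The intron chr5:28077672-28079283 (intron 13, 1612 nt) had 42, 88, 1459 and 0 reads. The 2 RPAD libraries of each lay on both sides of the total RNA libraries. The intron chr9:59513762-59516355 (intron 3, 2594 nt) had 70, 33, 1571 and 108 reads, and chr3:100847446-100849366 (intron 8, 1921 nt) had 53, 62, 988 and 366. The intron chr15:77615697-77616916 (intron 13, 1220 nt) went the other way within RPAD, with 64, 42, 154 and 1373 reads. In these last 3 introns both RPAD counts exceeded both total RNA counts, in libraries with 4.77 times as many member reads on average. As shares of a library's back-splice reads, this held for the chr3 intron alone. In the chr9 intron the share in RPAD 2 lay below both total RNA libraries, and in the chr15 intron that in RPAD 1 did.

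The stretch of ends differed between these introns while it was alike in most libraries of one intron. The read-weighted median end of chr1:60555379-60556323 was 176, 187, 180 and 178.5 nt, in the order used above. That of chr9:59513762-59516355 was 185.5, 193, 191 and 191.5 nt. In chr15:77615697-77616916 it was 120.5, 119.5, 124 and 123 nt. In chr3:100847446-100849366 the median end was 282, 263.5 and 263 nt in total RNA 1, total RNA 2 and RPAD 2 but 134 nt in RPAD 1, where the most read circle was 106 nt long. That intron held ends from 101 to 310 nt. In chr2:27387235-27388512 the median end was 307, 357 and 370.5 nt in the 3 libraries with reads.

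The circles with the highest mean share of back-splice reads were often absent from an RPAD library. A circle of 350 nt, chr8:108142836-108143185, was read 484 times in RPAD 2 and in no other library. A circle of 136 nt, chrX:68675298-68675433 (minus strand), was the reverse, read 15 and 65 times in total RNA and never after RPAD. The 122 nt circle of the chr1 intron followed. Of the other 5, the circles of 131 and 113 nt came from the same chr1 intron and are given above. Another 2 came from the chr19 intron: the circle of 207 nt had 2, 1, 184 and 0 reads, and that of 212 nt had 4, 5, 84 and 0. The last, a circle of 185 nt at chr1:60556139-60556323, had 5, 0, 102 and 1 reads. Their mean share of a library's back-splice reads ran from 0.0200% to 0.0633%.

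The introns with most distinct circles reached over 100 ends. The intron chr7:29687047-29689559 (intron 4, 2513 nt) gave 136 circles over the 4 libraries, 38 and 26 of them in the total RNA libraries and 72 and 83 in the RPAD libraries. Its ends lay 131 to 485 nt from the 5' splice site. It had 48, 36, 548 and 262 reads. The chr3 intron gave 132 circles, the chr2:27387235-27388512 intron 116, and chr2:174168799-174170575 (intron 7, 1777 nt) gave 113 from 39, 24, 66 and 270 reads. The fifth, chr18:38355984-38357322 (intron 2, 1339 nt), gave all its 112 circles in RPAD 2, from 834 reads, and had 0 reads in the other 3 libraries. Of these 5 introns, 3 had reads in all 4 libraries.

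No member circle passed the test of RPAD against total RNA. The edgeR quasi-likelihood test was fitted to all circles, with Benjamini-Hochberg adjustment over the 924 that passed the low-count filter, of which 393 were members (the other 53257 members did not pass it). It called 0 members, against 0% of all circles tested, and the smallest adjusted p of a member was 0.179 (edgeR, Benjamini-Hochberg). Before adjustment, p was under 0.05 for 3 members with more reads in RPAD (background 1.73% of circles tested) and 17 with fewer (background 15.8%). The median log2 fold change was 0.05 over the members and -0.15 over all circles tested. The filter used the same reads as the test, so a member with reads in 1 group alone passed only by that group. DESeq2 called 0 members as well. Before adjustment its p was under 0.05 for 0 members in the direction of RPAD (background 1.62%) and 16 in the direction of total RNA (background 16.1%). Scaling moved all circles alike: with DESeq2-type size factors in place of TMM, the share above 0 went from 50.6% to 62.8% for members and from 46.1% to 54.2% for all circles tested, and the medians became 0.38 and 0.18. Without RPAD 1 edgeR called 10 members, 8 of them lower (2.54% of members and 19.9% of all circles tested were called). Without RPAD 2 it called 13, 12 of them lower (3.31% of members and 23.2% of all).

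The member circles with the smallest p were at 0 in both libraries of a group. On the side of RPAD, chr7:82891697-82891797 (101 nt) was absent from total RNA and read 30 and 40 times after RPAD, which is at least 5.11-fold higher. The circle chr11:54822417-54822611 (195 nt) was read 84 and 23 times after RPAD (at least 7.81-fold higher), and chr15:58787833-58787987 (155 nt) 45 and 15 times (at least 4.38-fold higher). Folds are shares of back-splice reads, set against a floor of 3 reads over the group at 0, and cover only the counting error of the 0. On the side of total RNA, chr19:10698129-10698480 (352 nt) was read 6 and 8 times and never after RPAD, which is at least 21.3-fold lower. The 2 circles of the intron chr7:149688663-149689952, of 146 and 131 nt, were read 8 and 7, and 9 and 6 times in total RNA and never after RPAD (each at least 22.8-fold lower). After Benjamini-Hochberg adjustment the edgeR p was 0.216, 0.227 and 0.270 for the higher circles and 0.179 for each of the lower ones.

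Summed per intron, edgeR also called no member, while DESeq2 called 76. Of 1026 intron sums tested, 902 were member introns, and the other 5002 member introns did not pass the low-count filter. The edgeR test called 0 of them (background 0%), with the smallest Benjamini-Hochberg adjusted p at 0.0898. Before adjustment, p was under 0.05 for 9 with more reads in RPAD (background 1.17%) and 246 with fewer (background 28.3%). DESeq2 called 76 member introns lower and 0 higher (background 8.87% lower), and 75 of the 76 had no read in RPAD. Those 75 passed the low-count filter by their total RNA reads alone. Before adjustment its p was under 0.05 for 6 member introns in the direction of RPAD (background 0.975%) and 248 in the other (background 28.6%). The median log2 fold change was -0.92 over member introns and -0.98 over all intron sums tested, and it stayed at -0.92 with introns at 0 in a group set to their bound. Of the 902, 239 had 0 reads in both RPAD libraries and 16 in both total RNA libraries. The filter works on reads scaled to library size, so fewer reads sufficed in the smaller total RNA libraries than in RPAD. The counts of lower and higher introns are not free of this entry rule, and most of the background is the member introns themselves. Without RPAD 1 edgeR called 250 member introns, 234 of them lower (27.7% of member introns and 28.1% of all intron sums). Without RPAD 2 it called 327, 307 of them lower (36.3% and 36.5%). The share of introns with at least 20 reads in RPAD 1 that had 0 in RPAD 2, 72.8%, stands beside these counts; its part in them was not tested.

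The intron with the smallest p, chr7:149688663-149689952 (1290 nt), was read only in total RNA. Member reads numbered 225 and 164 there and none after RPAD, a level at least 592-fold lower by the same floor (edgeR, Benjamini-Hochberg adjusted p = 0.0898; DESeq2 0.00942; 3.31e-14 to 1.00 over its alternatives). With the replicate number as a block it was the single member intron that edgeR called. The intron chr19:10698129-10699213 (1085 nt) was read 99 and 127 times in total RNA and never after RPAD (at least 344-fold lower), and chr2:157281504-157282812 (1309 nt) 20 and 151 times (at least 260-fold lower). For both, the edgeR p after Benjamini-Hochberg adjustment was 0.0898, and DESeq2 gave 0.0170 and 0.0222 (2.95e-07 to 1.00 and 4.82e-05 to 1.00 over their alternatives).

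In the other direction the introns were absent from total RNA. The intron chr15:76327391-76328048 (658 nt) was read 411 and 247 times after RPAD (at least 48.0-fold higher). The intron chr9:35277740-35278569 (830 nt) was read 135 and 76 times (at least 15.4-fold higher), and chr5:125559477-125561499 (2023 nt) 71 and 71 times (at least 10.4-fold higher). After Benjamini-Hochberg adjustment the edgeR p was 0.122, 0.131 and 0.131. All 3 were read in both RPAD libraries.

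Member introns ranged from number 2 to number 182 of their transcripts, and 5.61% of them lay next to an exonic circle. The intron number was not set against the number of introns in the transcript. The median intron number was 8 in every library, and 9.59% of the introns were number 2. Of the 5904 introns, 331 (5.61%) flank the exons of an exonic circle listed in any library. Within a library the share was 2.69% and 2.91% in total RNA, against 1.51% and 1.37% in RPAD. A host transcript that also listed an exonic circle in the same library was given for 19.2% and 20.0% of member introns in total RNA and for 10.1% and 14.7% in RPAD. Hosts were matched by a single transcript name per intron, although an intron can carry several, so these shares may be too low. The same shares for introns of the other classes are not given here, so none of them is high or low by comparison.

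Most hosts gave 1 member intron. Of 4366 host names, 3395 (77.8%) had a single one, and the most introns under a name were 16. A locus on chromosome 2 holds 2 overlapping models with many of them: 16 introns between 76638638 and 76805110, and 15 between 76554173 and 76818148. The first had 93, 111, 525 and 228 member reads and the second 83, 120, 422 and 685, so both were read in every library. The other model with 16 introns, chr2:125127712-125304925, counted 100 in RPAD 1 and 1103 in RPAD 2, beside 22 and 31 in total RNA. By chromosome, chromosome 2 held most circles, 4592 in 494 introns (8.56%), and X the fewest, 1058 in 133 introns (1.97%).

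On average, member introns carried more circles each than the other classes of intronic circles in all 4 libraries. The median member intron held 2, 2, 6 and 9 circles (total RNA 1 and 2, then RPAD 1 and 2). The medians were 2, 2, 4 and 4 in introns up to 500 nt, in first introns and in later introns over 5000 nt. For ends within 50 nt of the 3' end they were 1, 1, 2 and 1.5. In total RNA the medians of members thus equalled those of all classes but the last. Introns up to 500 nt held 3.28, 3.60, 9.73 and 11.5 circles per intron (total RNA 1 and 2, then RPAD 1 and 2). First introns held 3.83, 3.00, 8.01 and 9.70, later introns over 5000 nt 3.34, 4.44, 10.9 and 12.4, and introns with ends within 50 nt of the 3' end 1.95, 2.05, 3.70 and 3.20. The mean excess of the members was 2.36 ± 1.87, 3.24 ± 2.77, 1.62 ± 1.70 and 6.66 ± 5.19 circles per intron in that order (SD over 4 libraries). Members were higher in 4 of 4 libraries against each class (exact sign-flip permutation p = 0.12, the smallest that 4 libraries can give; 0.222 after Benjamini-Hochberg adjustment over 16 comparisons). By group means, members also had more reads per intron, 6.15 in total RNA and 69.6 in RPAD. The means were 4.79 and 31.3 in first introns, and 5.06 and 55.9 in later introns over 5000 nt. They were 5.02 and 64.1 in introns up to 500 nt, and 3.73 and 17.9 for ends near the 3' end. First introns were higher in total RNA 1 (5.84 against 5.63), and introns up to 500 nt in RPAD 1 (79.2 against 74.9). The classes were not brought to an equal depth. Introns up to 500 nt and ends within 50 nt of the 3' end leave fewer positions for distinct ends by definition. The excess over these classes may in part follow from the rule, and this was not tested.

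Median length and reads per circle were compared with the other classes in the same way. The median circle of introns up to 500 nt was 130, 136, 139 and 131 nt long, shorter than that of members in 4 of 4 libraries by 24.25 ± 12.9 nt on average (SD; exact sign-flip permutation p = 0.12, adjusted 0.222). Those circles cannot exceed their introns. Later introns over 5000 nt gave medians of 161, 173, 148 and 134 nt, with members longer in 2 of 4 libraries (exact sign-flip permutation p = 0.500, adjusted 0.571). Members were shorter than first introns' circles in 3 of 4, with a mean difference of -10.25 ± 10.3 nt (exact sign-flip permutation p = 0.25, adjusted 0.400), and than circles ending near the 3' end in 3 of 4, with -39 ± 68.2 nt (p = 0.500, adjusted 0.571, by the same exact test). Reads per circle of members were lower than in introns up to 500 nt in 4 of 4 libraries, with a mean difference of -0.611 ± 0.843, and higher than in later introns over 5000 nt in 4 of 4, by 0.12 ± 0.137 (SD; exact sign-flip permutation p = 0.12 each, adjusted 0.222). Against first introns members were higher in 3 of 4 by 0.742 ± 1.12 reads per circle (exact sign-flip permutation p = 0.375, adjusted 0.545), and against circles ending near the 3' end they were lower in 3 of 4, with -0.243 ± 0.627 (exact sign-flip permutation p = 0.625, adjusted 0.667). No comparison with another class passed the threshold after adjustment, and the design could not reach it.

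**Figure D5:**
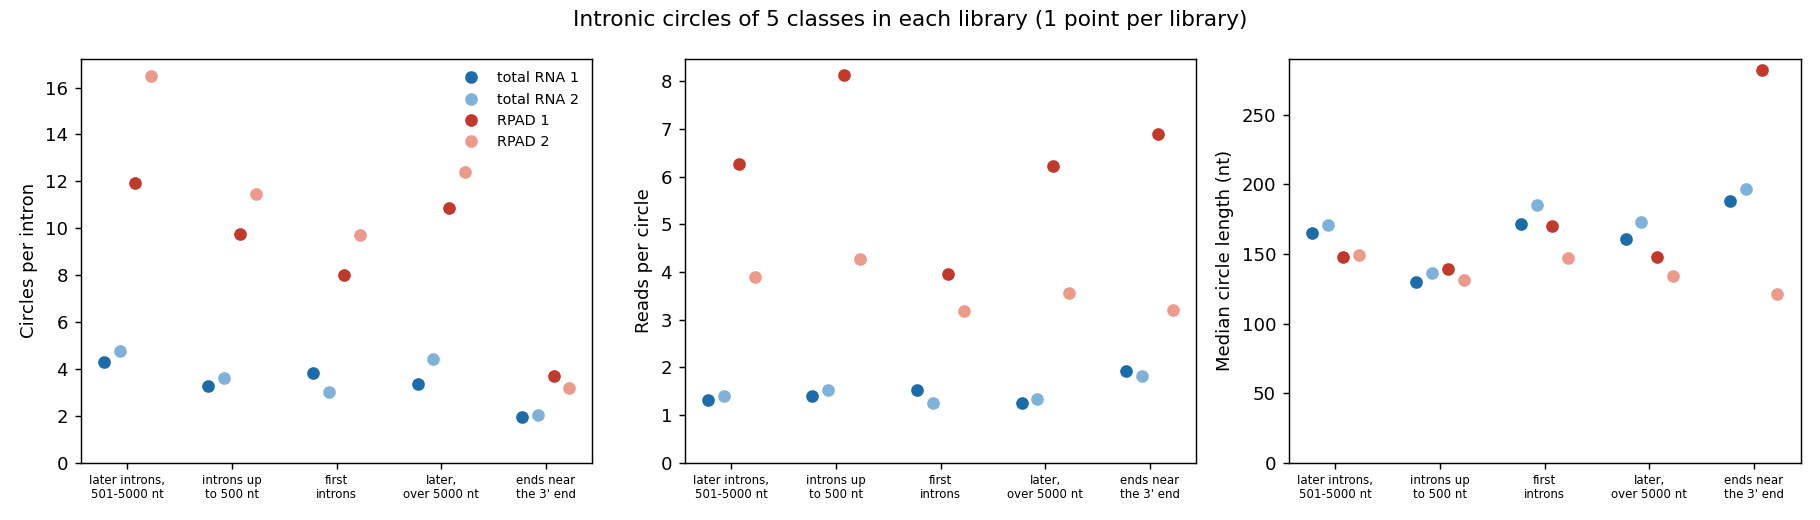
Circles per intron (left), reads per circle (middle) and median circle length in nt (right) for 5 classes of intronic circles (x axis), with 1 point per library. The members, at the far left, have 4.31, 4.76, 11.9 and 16.5 circles per intron, above every other class in the same library.

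The circles just inside and just outside the limits of the rule are given as a description. Later introns over 400 and up to 500 nt held 2509 circles in 257 introns with a median length of 138 nt, and those over 500 and up to 600 nt held 3132 in 366 with 142 nt. At the upper limit, introns over 4500 and up to 5000 nt held 582 circles in 86 introns with a median of 210 nt, and those over 5000 and up to 5500 nt held 451 in 73 with 166 nt. Within the intron lengths of the rule, 29 circles ended 51 to 100 nt from the 3' end and 89 ended 0 to 50 nt from it. Few circles therefore lay near that limit. First introns of the same lengths held 2811 circles in 455 introns, intron 2 held 4894 in 566 and intron 3 held 4092 in 540.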

How the data were processed

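Back-splice junction reads of 4 libraries of differentiated C2C12 cells were analysed. The deposited files list the circles of 1 library each with raw counts of reads, per the file headers. The genome build was mm9 and the named programs are TopHat, Cufflinks 2.2.1 and cutadapt, per the submitters' processing notes. The back-splice caller was not given in the sources used here. Groups came from the sample titles. A circle is a chromosome, start, end and strand, and was a member if any of its entries met the rule; 130 intronic circles had entries of different classes. Members and lists were chosen with earlier results of these data known.

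Abundance was tested with edgeR 4.0.16 (quasi-likelihood, TMM, group as the only term, filterByExpr with minimum count 5 and minimum total 10) in R 4.3.3, fitted to all circles and to sums per intron, with Benjamini-Hochberg adjustment at 0.05. DESeq2 1.42.0 was run without independent filtering. The edgeR script was tested on simulated counts with a dispersion of 0.05. The common dispersion of the data was 2.55 for circles and 3.03 for intron sums. The simulation therefore does not show what edgeR could call in these data. Library values were compared by exact permutation tests with Python 3.11.15 and scipy 1.17.1. The p-values measure the spread between libraries, which may be technical. Back-splice reads totalled 38850 (total RNA 1), 35981 (total RNA 2), 150478 (RPAD 1) and 191246 (RPAD 2). Named items were, by mean share of reads, 8 circles and 8 introns; the 5 introns with most circles; the 5 circles in all libraries with the highest lowest count; and the 3 of smallest p in each direction.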

Additional observations from a re-analysis of the deposited data

How the results depend on the processing

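The difference in member circles listed, 4468.5 (RPAD minus total RNA), was -2746 with ends within 10 nt merged, -3775 at equal depth, and -73.5 to 9010.5 with 1 library left out. The share of intronic reads, reads per circle and circles per intron kept their direction under every alternative run for them: at least 2 or 5 reads, more than 100 nt from the 3' end, merged ends, equal depth, another denominator or membership, and each library left out. The difference in share grew from 4.14 to 16.2 percentage points with at least 5 reads. The shares were then 57.8% in total RNA 1 and 78.5% in total RNA 2, against 83.7% and 85.0% in RPAD. Only 102 and 143 member circles were left in total RNA. The difference in reads per circle grew from 3.73 to 17.1 with ends merged, but it was 0.616 at equal depth. The difference in circles per intron, 9.69, was 1.08 with ends merged and 4.37 at equal depth. The edgeR test called 0 member circles and 0 member introns with other size factors, totals alone, no low-count filter, or at least 10 reads in 2 libraries; all ends of an intron summed also gave 0 introns. DESeq2 called 0 circles and 76 introns. With independent filtering, added after seeing the data, it called 2 circles (0.509% of members, 8.44% of all tested) and 179 introns (19.8%, 20.1%); fewer features then enter the adjustment. With 1 library left out edgeR called 0 to 13 circles and 0 to 327 introns (of all tested, up to 214 and 375), a fit in which a single library takes its spread from the other arm. The cause of these changes was not tested.

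With the replicate block edgeR called 0 member circles and 1 member intron. The correlation between libraries of equal number, taken on deviations from group means, was 0.0343 (circles) and 0.0635 (intron sums), and nothing in the labels ties the numbers to a shared source. With the block, 36.4% of member circles and 32.8% of all circles were above 0, and 23.8% of member introns and 24.2% of all intron sums.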

Other observations

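The mitochondrial entries left out by the rule numbered 57 intronic circles in 2 introns. All were listed in total RNA 1, with 504 reads, and the other 3 libraries listed 0. At 35 of the 5869 5' splice sites used by member circles the circles were assigned to more than 1 intron.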
